A study of Mus musculus with 23 samples.

Results

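The genes described here encode the receptors and co-receptors of the Hedgehog pathway at the cell surface and in the primary cilium: Smo, Ptch1, Cdon, Boc, Gas1, Hhip and Gpr161. They were chosen by gene symbol, without use of measured values, and all 7 were found among the 23458 genes of the count table. RNA was sequenced from whole mouse hearts at embryonic day 13.5, all labelled C57BL/6, in 23 libraries. The 8 wild-type hearts had unmodified Grk2, Grk5 and Grk6 and no Cre. In the 8 haploinsufficient hearts Grk2 was floxed on a single allele (fl/wt), Grk5 was floxed on both alleles (fl/fl), Grk6 was knocked out on both (KO/KO), and Nkx2.5Cre was present. The 7 triple-knockout hearts had the same Grk5, Grk6 and Nkx2.5Cre alleles with Grk2 fl/fl. Both GRK groups thus share the loss of Grk5 and Grk6 and the Cre driver, and differ from each other by label in the second Grk2 allele. Nkx2.5Cre recombines in the cardiac lineage, so that other cells of the heart keep their floxed alleles, whereas the Grk6 knockout is in every cell. Whether every replicate is an embryo of its own is not in the labels, so p-values measure the spread between these libraries, which may be technical in part.

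Hedgehog ligands (Sonic, Indian and Desert Hedgehog) bind PTCH1, a membrane protein that otherwise holds back SMO, a receptor of the G-protein coupled type that starts the signal. CDON, BOC and GAS1 bind ligand at the cell surface and help present it to PTCH1, whereas HHIP binds ligand and removes it. GPR161 is a ciliary G-protein coupled receptor that keeps protein kinase A active and the pathway off until it leaves the cilium. PTCH1, HHIP and the transcription factor GLI1 are themselves induced by the pathway, so their transcripts are used as its readouts. GRK2 phosphorylates activated SMO, and the question addressed by these genotypes for the present genes is whether the transcripts of the receptors differ where the kinases are reduced or lost. In the embryo, ligand from the foregut and lung endoderm acts on neighbouring mesenchyme and on second heart field progenitors that build the atrial septum and the atrioventricular canal.

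The 250 bases before the annotated start are shown for the pair of pathway readouts Ptch1 and Hhip, whose levels varied together over libraries, and for Cdon, which varied apart from them. They are from RefSeq, build GRCm38.p6, each on its own gene's strand, and capitals mark CpG dinucleotides. The Hhip and Cdon windows adjoin the gene starts of the deposited annotation, whereas the Ptch1 window lies upstream of its start there (63565520) without adjoining it.
Ptch1, chr13:63565736-63565985, minus strand: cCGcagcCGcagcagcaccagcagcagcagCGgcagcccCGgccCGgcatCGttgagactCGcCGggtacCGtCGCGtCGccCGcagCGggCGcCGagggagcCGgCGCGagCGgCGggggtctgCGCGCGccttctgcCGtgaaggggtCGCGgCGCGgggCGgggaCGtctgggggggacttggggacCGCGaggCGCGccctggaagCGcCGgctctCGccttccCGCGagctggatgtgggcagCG
Hhip, chr8:80058009-80058258, minus strand: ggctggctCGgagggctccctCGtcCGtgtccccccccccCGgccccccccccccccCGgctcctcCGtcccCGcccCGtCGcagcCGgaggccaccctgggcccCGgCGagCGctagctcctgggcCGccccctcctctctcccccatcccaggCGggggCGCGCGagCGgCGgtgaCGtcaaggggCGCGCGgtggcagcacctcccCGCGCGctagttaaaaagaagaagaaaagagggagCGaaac
Cdon, chr9:35451826-35452075, plus strand: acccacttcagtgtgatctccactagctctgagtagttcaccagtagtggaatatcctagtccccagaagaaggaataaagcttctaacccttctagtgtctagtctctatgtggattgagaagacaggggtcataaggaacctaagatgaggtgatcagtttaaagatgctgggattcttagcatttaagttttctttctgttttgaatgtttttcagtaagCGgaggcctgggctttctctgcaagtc
The Ptch1 window held 41 CpG dinucleotides and the Hhip window 28, against a median of 6 over the 32851 windows of this length, and the Cdon window held 1. Of the genes not shown, Smo had 15, Gas1 10, and Gpr161 1 and 5 in its 2 windows. A relation of CpG content to how the genes varied over libraries was not tested. Of the 7 genes 6 had an entry, and Boc had none. The GLI binding motif GACCACCCA, searched on both strands (TGGGTGGTC on the other strand), was in none of the windows of these 6 genes, and 74 of all windows (0.225%) held it.

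The libraries held between 1757257 and 14050559 counts, with group medians of 6657773.5 in wild-type, 4489026.5 in haploinsufficient and 7270188 in triple-knockout hearts. Over the whole gene, Grk2 (listed as Adrbk1) stood at 54.3 ± 4.25 CPM (read counts scaled to library size by TMM; mean ± SD, n = 8) in wild-type, 42.5 ± 12.04 (n = 8) in haploinsufficient and 34.4 ± 6.60 (n = 7) in triple-knockout hearts. It fell in triple-knockout hearts (edgeR adjusted p = 0.0120) and missed the threshold in haploinsufficient hearts (edgeR adjusted p = 0.207), both against wild type. For the triple knockout against haploinsufficient hearts its log2 fold change was -0.32 ± 0.14 (SE) and missed the threshold too (edgeR adjusted p = 0.279). Grk5 had means of 23.9, 13.3 and 14.2 CPM and Grk6 of 30.7, 15.7 and 14.96 CPM in the same order of groups, and both fell in both GRK groups. Nkx2-5 fell in triple-knockout hearts (log2 fold change -0.98, edgeR adjusted p = 0.000283) and missed the threshold in haploinsufficient hearts (-0.50, edgeR adjusted p = 0.0666), both against wild type. Between the GRK groups it was at -0.48 (edgeR adjusted p = 0.141). The summed level of 8 cardiomyocyte markers was between 23900 and 46720 CPM in every library. A score of 14 marker genes of lung, foregut, liver and thymus (mean log2 CPM over the markers, set against the wild-type mean) ran from -1.68 to 1.75 in wild-type, -0.66 to 2.99 in haploinsufficient and 0.09 to 2.70 in triple-knockout hearts. It was above 1.5 in 7 libraries: wild-type replicate 4, haploinsufficient replicates 1, 7 and 8, and triple-knockout replicates 1, 3 and 7. In CPM, the 18 markers of this list summed to between 8.19 and 65.4 in wild-type, 22.04 and 260 in haploinsufficient and 21.6 and 155 in triple-knockout hearts. Sftpc, Foxa1, Hnf4a and Foxn1 of this list fell under the filter on low counts and are not in the score. Of these, the lung epithelial gene Sftpc was at 0 in 5 libraries of wild-type, 3 of haploinsufficient and 2 of triple-knockout hearts. The thymic gene Foxn1 was at 0 in 6, 7 and 4. The markers did not all move together in the libraries of high score. The liver gene Alb was at 2.61, 2.49 and 1.84 CPM in haploinsufficient replicates 7 and 8 and triple-knockout replicate 7. These were the lowest values of their groups. In the same libraries the epithelial gene Epcam was at 52.6, 37.9 and 31.7 CPM and Cldn6, of the same list, at 42.2, 34.5 and 28.7 CPM. Haploinsufficient replicate 1 had the highest Alb of its group, at 18.3 CPM. The libraries of high score stand apart in several of the genes below, and fold changes and ratios without them are given where such a fit could be had.

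In wild-type hearts Smo had the highest level per length of the 7 genes, and Hhip was close to the detection limit. Per kilobase of exon, Smo stood at 29.99 ± 2.52 CPM (SD, n = 8 here and in the rest of this paragraph), with libraries from 24.7 to 32.6. Gas1 (17.4 ± 2.47) and Cdon (16.7 ± 1.24) followed, and their ranges overlapped, from 14.7 to 20.6 and from 15.3 to 18.8. Boc (10.02 ± 3.21), Gpr161 (8.39 ± 2.50) and Ptch1 (7.38 ± 1.19) were next and did not differ from one another beyond their spread. Hhip was at 0.132 ± 0.231, with 2 libraries at 0 and a highest value of 0.678. The order was the same in the deposited FPKM (a level per exon length and library size), where Smo stood at 28.99 ± 2.76 and Hhip at 0.127 ± 0.224. Among the 3 ligand-binding helpers, Gas1 and Cdon thus exceeded Boc, although wild-type replicate 4, with Boc at 16.9 CPM per kb, reached the range of both.

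**Figure D1:**
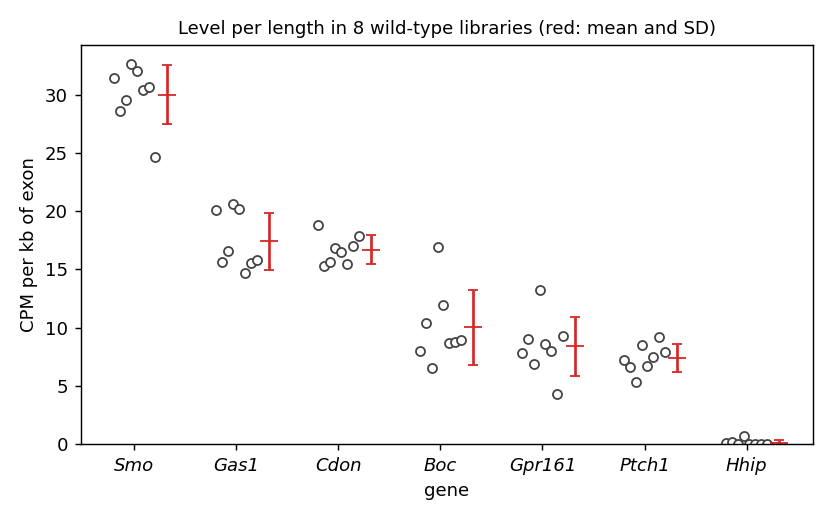
Level of each gene in the 8 wild-type libraries, in CPM per kilobase of exon, ordered by the mean. Circles are libraries and red bars the mean and SD; Smo has the highest mean at 29.99 and Hhip the lowest at 0.132.

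Of the 7 genes, Cdon alone passed the test in any comparison of groups. None passed between triple-knockout and wild-type hearts (edgeR quasi-likelihood test, adjusted p under 0.05), where 1.19% of the 13941 genes tested did. DESeq2 called none of them either, and 2.09% of all genes. At an unadjusted edgeR p under 0.05 Ptch1 and Hhip were found, 2 of 7, where 10.8% of all genes were. Between haploinsufficient and wild-type hearts 1 of 7 fell, where 2.24% of all genes were called. Between triple-knockout and haploinsufficient hearts 1 of 7 rose, where 0.395% of all genes were called. The median log2 fold change of the 7 genes was 0.145, 0.053 and -0.036 in these comparisons, and that of all genes 0.008, 0.011 and 0.003. Between the GRK groups the log2 fold changes of the other 6 genes ran from -0.15 (Gas1) to 0.24 (Gpr161), with edgeR adjusted p-values of 0.582 or higher. Each pair of comparisons shares a group of libraries, so they are not independent of one another.

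**Figure D2:**
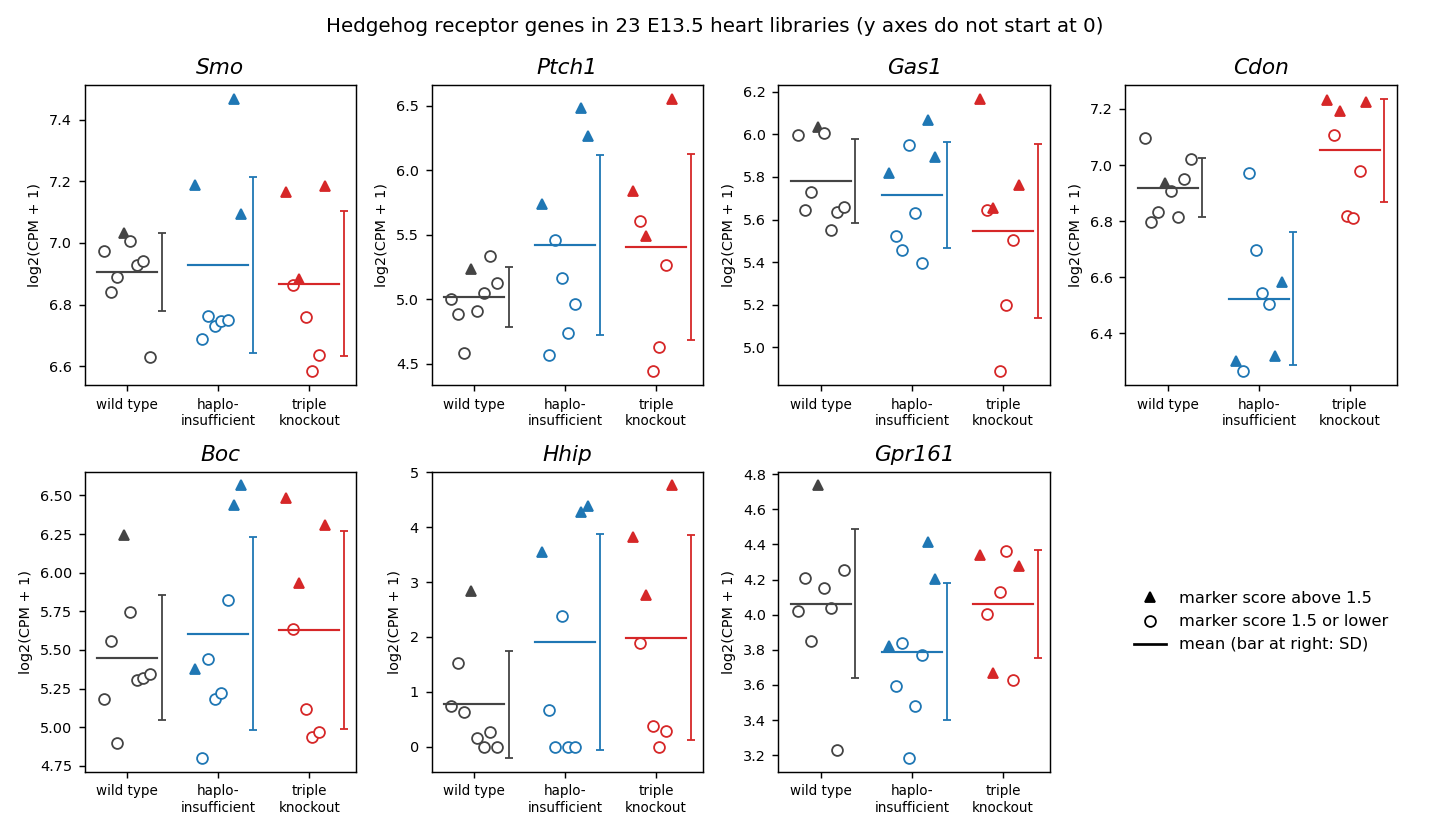
Level of each gene in the 23 libraries by group, as log2(CPM + 1), on axes that do not start at 0. Symbols are libraries, filled triangles those with a marker score above 1.5, lines the group means and bars at the right the SD. Cdon is lowest in the haploinsufficient group, and the highest Ptch1 and Hhip values over all libraries are triangles, while the highest Ptch1 value in wild-type hearts is not.

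**Figure D3:**
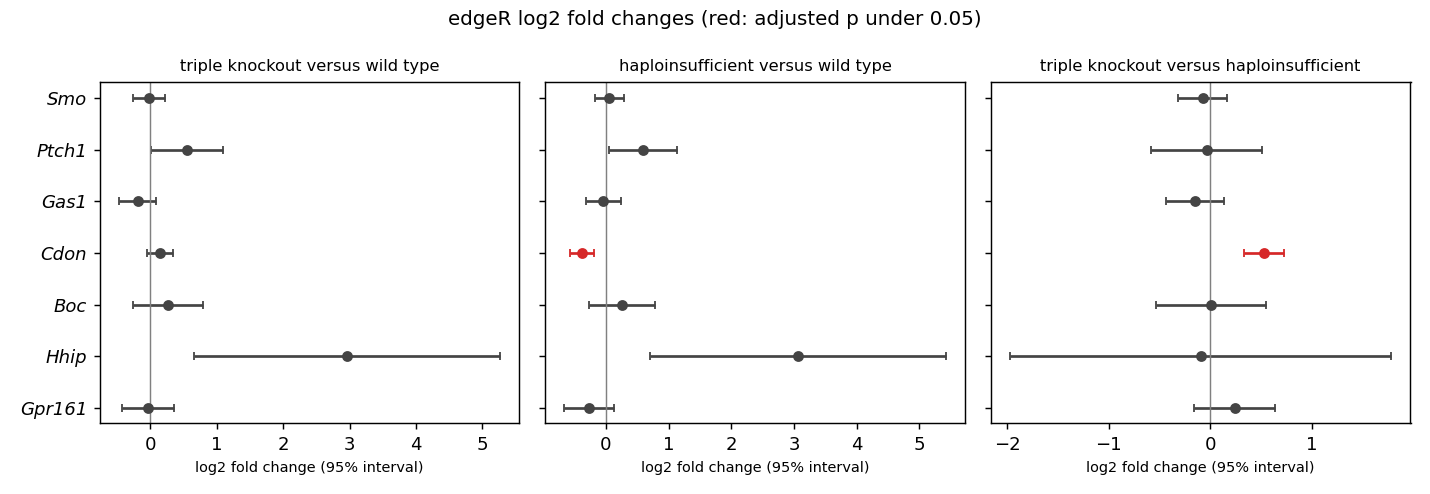
edgeR log2 fold change of each gene in the 3 comparisons, with 95% intervals, each panel on its own scale. Red marks an adjusted p under 0.05, reached by Cdon in the haploinsufficient hearts against wild type (-0.38) and in the triple knockout against haploinsufficient hearts (0.53).

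Cdon, a cell-surface protein of the immunoglobulin family that binds Hedgehog ligand and also takes part in muscle differentiation, was lower in haploinsufficient hearts than in both other groups. The gene lies on chromosome 9 (mm10, 35452076 to 35507652, plus strand, 19 exons). It was at 110 (lowest), 120 (median) and 136 (highest) CPM in wild-type hearts. In haploinsufficient hearts these values were 75.9, 91.0 and 124 CPM, and in triple-knockout hearts 111, 137 and 149 CPM. The groups overlapped through a single library, haploinsufficient replicate 3, while the other 7 haploinsufficient libraries lay below every wild-type and every triple-knockout library. Against wild type Cdon fell by 0.38 ± 0.09 (log2, SE), 1.30-fold (95% interval of the log2 change -0.58 to -0.19; edgeR adjusted p = 0.0282). It was 1.44-fold higher in the triple knockout than in haploinsufficient hearts (log2 fold change 0.53 ± 0.10, interval 0.33 to 0.73, edgeR adjusted p = 0.0164). The log2 fold change of the triple knockout against wild type was 0.15 ± 0.10 (interval -0.05 to 0.34, edgeR adjusted p = 0.648), with 4 of 7 triple-knockout libraries above every wild-type library.

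Cdon kept its direction in the fits below, whereas its side of the threshold moved with the libraries and the model used. Without the 7 libraries of high marker score the log2 fold change against wild type was -0.32 in haploinsufficient hearts (edgeR adjusted p = 0.201), and that of the triple knockout against haploinsufficient hearts 0.34 (edgeR adjusted p = 0.759). With the score as a term the fall was 0.36 on the log2 scale (edgeR adjusted p = 0.0967), and by limma on log2(FPKM + 1) the rise was 0.57 (limma adjusted p = 0.0575). Leaving out any of wild-type replicates 1, 7 and 8 or haploinsufficient replicates 1, 2 and 7 took the adjusted p of the first difference from edgeR to between 0.0530 and 0.0710. The rise in the triple knockout over haploinsufficient hearts kept an adjusted p of 0.046 or lower in edgeR without any single library. Within library IDs 1 to 12 and 19 to 30, a split taken from the library numbers, the fall was 0.32 and 0.44 on the log2 scale (edgeR adjusted p = 0.590 and 0.0611), and the rise 0.59 and 0.48 (edgeR adjusted p = 0.0876 and 0.163). In a fit of the 2 GRK groups alone the rise was 0.53 (edgeR adjusted p = 0.0871). The summed level of 8 endothelial and endocardial markers was also lower in haploinsufficient hearts, at 848 to 1109 CPM against 982 to 1300 in wild-type and 972 to 1208 in triple-knockout hearts, and 3 of the 8 (Cdh5, Npr3 and Tek) fell there by edgeR. The part of those cells in the Cdon result was not tested. In whole hearts, fewer cells of a type and less RNA per cell cannot be told apart.

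Boc, the closest relative of Cdon among the co-receptors, did not share its pattern. The gene is on chromosome 16 (44485045 to 44558870, minus strand), and the microRNA gene Mir3081 lies within it without overlapping its exons. Its lowest, median and highest levels were 28.8, 39.3 and 74.9 CPM in wild-type, 26.9, 41.5 and 93.7 in haploinsufficient, and 29.6, 48.8 and 88.3 in triple-knockout hearts. The groups overlapped over nearly their whole range, and the highest library of each group had a marker score above 1.5. The log2 fold change was 0.26 ± 0.26 in haploinsufficient and 0.27 ± 0.26 in triple-knockout hearts against wild type (edgeR adjusted p = 0.634 and 0.796; intervals -0.27 to 0.79 and -0.27 to 0.80). Without the libraries of high score these differences were 0.00 and -0.17 (edgeR adjusted p = 0.996 and 0.999).

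Gas1, a GPI-anchored co-receptor encoded by a single exon on chromosome 13 (60174405 to 60177535, minus strand), was at 45.9, 50.8 and 64.7 CPM (lowest, median, highest) in wild-type hearts. It was at 41.1, 52.0 and 66.0 CPM in haploinsufficient and at 28.6, 49.1 and 70.9 CPM in triple-knockout hearts. The triple-knockout libraries spanned the widest range, with 3 of 7 below and 1 above every wild-type library. The log2 fold change against wild type was -0.19 ± 0.14 in the triple knockout (interval -0.48 to 0.09, edgeR adjusted p = 0.678) and -0.04 ± 0.14 in haploinsufficient hearts (interval -0.32 to 0.23, edgeR adjusted p = 0.909). Without the libraries of high score these were -0.40 and -0.18 (edgeR adjusted p = 0.400 and 0.593), and with the score as a term -0.45 and -0.30 (edgeR adjusted p = 0.0787 and 0.289). Gas1 lies 4.71 Mb and Ptch1 8.05 Mb from the knocked-out Grk6 on the same chromosome, and an effect of the alleles carried with that locus cannot be told apart from one of the genotype.

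The balance of the co-receptors was followed as log2 ratios of (CPM + 1) within each library, in 12 exact permutation tests. The ratio of Gas1 to Cdon was -1.14 ± 0.17 (SD, n = 8) in wild-type, -0.81 ± 0.38 (n = 8) in haploinsufficient and -1.51 ± 0.26 (n = 7) in triple-knockout hearts. It was lower by a log2 difference of -0.37 in the triple knockout than in wild type (two-sided exact permutation p = 0.00528, adjusted p = 0.0317 over the 12 tests). Against haploinsufficient hearts the difference was -0.70 (two-sided exact permutation p = 0.00295, adjusted p = 0.0317). In that comparison the fitted log2 fold change was 0.53 for Cdon and -0.15 for Gas1. The ratio uses the same libraries and Cdon counts, so it is not independent of the Cdon result above. Without the libraries of high score, a setting chosen after seeing the data, the difference was -0.45 against wild type (exact permutation p = 0.00303, adjusted 0.0364) and -0.61 against haploinsufficient hearts (exact permutation p = 0.0317, adjusted 0.190). Within ID sets 1 to 12 and 19 to 30 it was -0.29 and -0.41 against wild type and -0.48 and -0.88 against haploinsufficient hearts. Groups of 3 or 4 libraries allow an exact permutation p of no less than 0.0286 there before adjustment, so these values show the direction and carry no call. Leaving out single libraries moved the adjusted exact permutation p between 0.00799 and 0.0629 against wild type, where 10 of 15 omissions ended the call. Against haploinsufficient hearts it ran from 0.0120 to 0.0619, and 5 of 15 omissions, all of triple-knockout libraries (replicates 2, 3, 5, 6 and 7), ended the call. Against wild type the 10 were wild-type replicates 1 to 5 and the same triple-knockout replicates. The ratios of Boc to Cdon, Gas1 to Boc and Ptch1 to Smo, and that of Gas1 to Cdon between haploinsufficient and wild-type hearts (0.33), passed in no comparison, with adjusted exact permutation p-values of 0.121 or higher.

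Smo, the transducer that GRK2 phosphorylates, showed no difference between groups that passed the test. It lies on chromosome 6 (29735497 to 29761366, plus strand, 12 exons). Its lowest, median and highest levels were 98.0, 121 and 130 CPM in wild-type, 102, 107 and 176 in haploinsufficient, and 94.9, 116 and 145 in triple-knockout hearts. The medians of both GRK groups were under that of wild type, while their highest libraries, haploinsufficient replicate 7 and triple-knockout replicate 7, were above every wild-type library. The log2 fold change against wild type was -0.02 ± 0.12 in the triple knockout and 0.05 ± 0.11 in haploinsufficient hearts (edgeR adjusted p = 0.973 and 0.859). Their 95% intervals ran from -0.26 to 0.22 and from -0.18 to 0.29, or from 0.834-fold to 1.16-fold and from 0.883-fold to 1.22-fold. With the marker score as a term they were -0.28 and -0.21 (edgeR adjusted p = 0.159 and 0.323), and without the libraries of high score -0.17 and -0.16 (edgeR adjusted p = 0.880 and 0.473).

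Gpr161, the ciliary receptor that restrains the pathway, is on chromosome 1 (165295766 to 165321851, plus strand). It was at 8.39, 16.1 and 25.7 CPM (lowest, median, highest) in wild-type, 8.08, 12.9 and 20.3 in haploinsufficient, and 11.4, 16.5 and 19.6 in triple-knockout hearts. Every triple-knockout library lay within the wild-type range, and 6 of 8 haploinsufficient libraries were below the wild-type median. The log2 fold change was -0.03 ± 0.19 in the triple knockout and -0.27 ± 0.19 in haploinsufficient hearts against wild type (edgeR adjusted p = 0.980 and 0.496). The intervals were -0.42 to 0.36 and -0.66 to 0.13. Without the libraries of high score these were 0.04 and -0.44 (edgeR adjusted p = 0.999 and 0.356), and with the score as a term -0.35 and -0.62 (edgeR adjusted p = 0.432 and 0.0943).

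Hhip and Ptch1, the ligand-limiting readouts of the pathway, had higher group means in both GRK groups, but each group was spread widely and neither gene passed the adjusted test. Hhip (chromosome 8, 79965851 to 80058008, minus strand) was at 0, 0.373 and 6.16 CPM (lowest, median, highest) in wild-type hearts. In haploinsufficient hearts these values were 0, 2.39 and 19.9 CPM, and in triple-knockout hearts 0, 2.73 and 26.2 CPM. It had no count in 2 libraries of wild-type, 3 of haploinsufficient and 1 of triple-knockout hearts. At the limit of 3 counts it could be present there at up to 0.221 to 0.689 CPM, which covers counting error only. The groups overlapped at the low end, and in each of them the highest Hhip values were those of the libraries with a marker score above 1.5. Those were 6.16 CPM in wild-type replicate 4, then 10.6, 18.5 and 19.9 in haploinsufficient replicates 1, 7 and 8, and 13.1, 5.78 and 26.2 in triple-knockout replicates 1, 3 and 7. In the other 16 libraries Hhip reached at most 1.89 CPM in wild-type, 4.20 in haploinsufficient and 2.73 in triple-knockout hearts. The values of 4.20 and 2.73 were those of haploinsufficient replicate 4 and triple-knockout replicate 2, whose scores of 1.41 and 1.42 lie just under the limit. The fitted fold change was 7.81 in the triple knockout (95% interval 1.58 to 38.6, edgeR adjusted p = 0.268) and 8.34 in haploinsufficient hearts (1.62 to 42.9, edgeR adjusted p = 0.164) against wild type. Leaving out single libraries moved the log2 fold change, at 2.97 and 3.06 in all libraries, between 1.78 and 4.09 and between 2.64 and 4.13. Hhip fell under the filter on low counts without the libraries of high score and has no fitted value. With the marker score as a term the log2 fold changes of Hhip were -0.59 and -1.38 (edgeR adjusted p = 0.752 and 0.392).

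Ptch1 (chromosome 13, 63511533 to 63565520, minus strand, 23 exons) was at 23.02, 31.6 and 39.5 CPM (lowest, median, highest) in wild-type hearts. It was at 22.8, 39.0 and 88.4 CPM in haploinsufficient and at 20.7, 44.0 and 93.2 CPM in triple-knockout hearts. The groups overlapped at the low end, and 4 of 8 haploinsufficient and 4 of 7 triple-knockout libraries were above every wild-type library. Among haploinsufficient libraries Ptch1 was between 52.5 and 88.4 CPM where the marker score was above 1.5 and between 22.8 and 43.1 where it was not. Among triple-knockout libraries it was between 44.0 and 93.2 CPM above that score and between 20.7 and 47.9 at or under it. The value of 47.9 was that of triple-knockout replicate 2, with a score of 1.42. The log2 fold change against wild type was 0.55 ± 0.27 in the triple knockout (edgeR adjusted p = 0.460) and 0.59 ± 0.26 in haploinsufficient hearts (edgeR adjusted p = 0.245). Without the 7 libraries of high score these were 0.08 and 0.00 (edgeR adjusted p = 0.999 and 0.997), and with the score as a term -0.11 and -0.10 (edgeR adjusted p = 0.891 and 0.892).

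**Figure D4:**
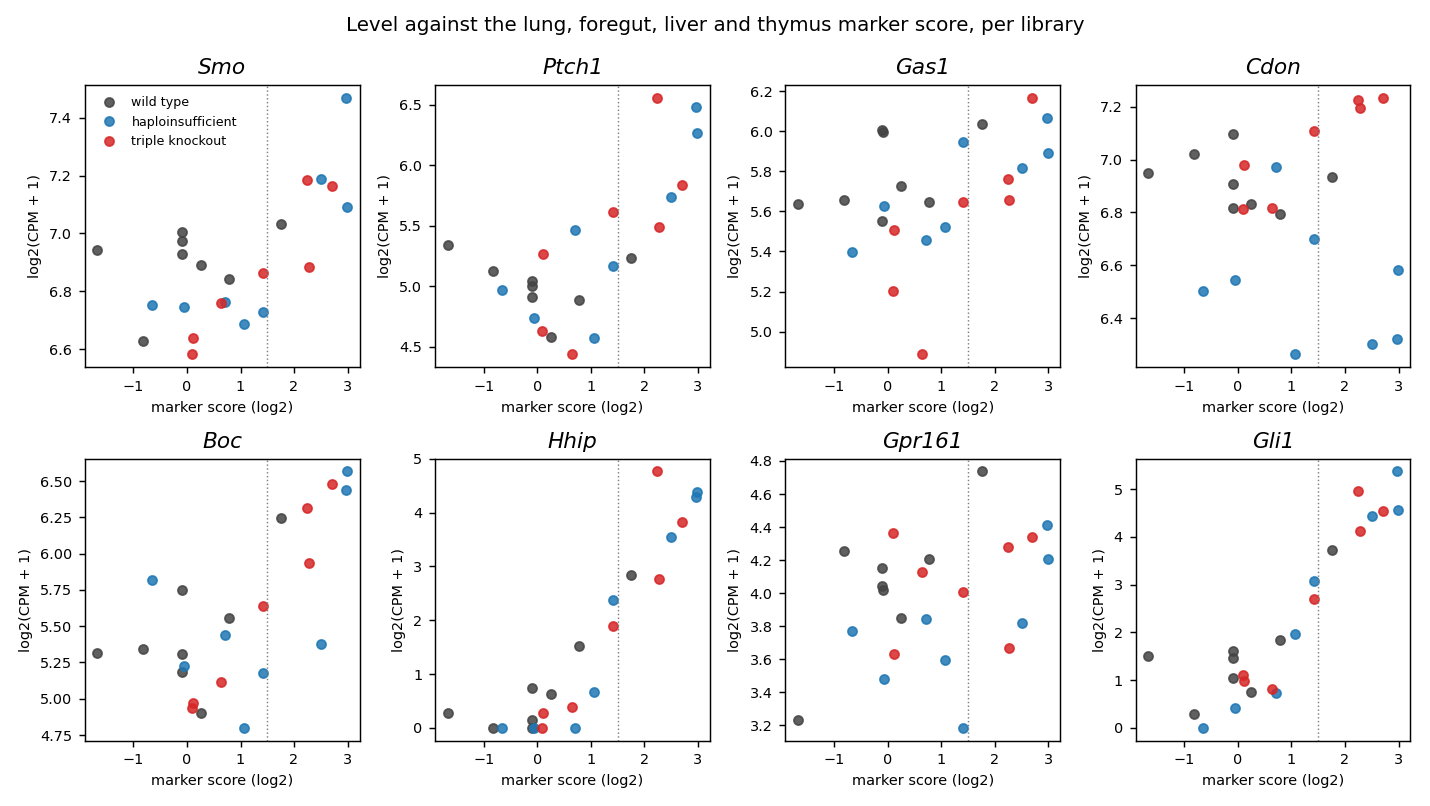
Level of each gene and of the pathway readout Gli1, as log2(CPM + 1), against the marker score of each library, in log2 units relative to the wild-type mean. Points are the 23 libraries, coloured by group, and the dotted line is the score of 1.5; Hhip and Gli1 are high in the libraries to its right, while Cdon shows no such pattern.

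Taking deviations from the mean of each library's group and ID set, 6 of the 7 genes were correlated with the marker score over the 23 libraries, and Cdon was not. The share of all genes correlated with the score was not computed, so this number cannot be set against that of genes in general. Hhip had the highest correlation (Pearson r = 0.884, Spearman rho = 0.837; permutation p = 9e-05 and 0.00017, adjusted over 7 relations 0.00063 and 0.00119). Smo followed at r = 0.790 and rho = 0.719 (permutation p = 0.00135 and 0.0048, adjusted 0.00315 and 0.0112) and Boc at r = 0.782 and rho = 0.755 (permutation p = 0.00078 and 0.00086, adjusted 0.00273 and 0.00301). For Ptch1 r was 0.722 (permutation p = 0.0151, adjusted 0.0177) and rho 0.516 (permutation p = 0.0746, adjusted 0.0870), so that its relation passed by Pearson's r alone. Gas1 (r = 0.631, rho = 0.533; permutation p = 0.00764 and 0.0222, adjusted 0.0107 and 0.0310) and Gpr161 (r = 0.630, rho = 0.618; permutation p = 0.00711 and 0.0148, adjusted 0.0107 and 0.0259) were lower. Cdon was at r = -0.09 and rho = -0.15 (permutation p = 0.679 and 0.538, adjusted 0.679 and 0.538). Leaving out the 2 libraries farthest from the median score gave 0.852 for Hhip, 0.813 for Smo, 0.817 for Boc, 0.672 for Ptch1, 0.579 for Gas1, 0.645 for Gpr161 and -0.16 for Cdon. Within library IDs 1 to 12 (n = 11) Hhip alone passed (r = 0.882, permutation p = 0.00103, adjusted 0.00721), and within IDs 19 to 30 (n = 12) Smo (r = 0.819) and Boc (r = 0.824) did, each with an adjusted permutation p of 0.0497. Among the 16 libraries with a score of 1.5 or lower none passed, Hhip being at r = 0.287 (permutation p = 0.260, adjusted 0.607); that choice of libraries also narrows the range of the score and lowers their number.

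The genes also varied with one another over libraries. Of the 21 pairs, 11 passed by Pearson's r and 10 by Spearman's rho, among them all 10 pairs of Smo, Ptch1, Boc, Gas1 and Hhip by Pearson's r (0.618 to 0.819). The share of correlated pairs over all genes was not computed, so whether these genes vary together more than others was not tested. The transducer Smo and the inhibitor Hhip were at r = 0.817 and rho = 0.775 (permutation p = 0.00042 and 0.00113, adjusted over 21 pairs 0.00609 and 0.00791). Ptch1 and Hhip were at r = 0.819 and rho = 0.695 (permutation p = 0.00824 and 0.0150, adjusted 0.0173 and 0.0395), and Smo and Ptch1 at r = 0.788 and rho = 0.691 (permutation p = 0.00144 and 0.00824, adjusted 0.00756 and 0.0247). Without haploinsufficient replicate 7 and triple-knockout replicate 7, the libraries farthest from the median of the first gene, these 3 were at r = 0.725, 0.712 and 0.650. None of the 6 pairs with Cdon passed (r from -0.07 to 0.338), and Gpr161 passed with Boc only. No pair passed within either ID set or among the 16 libraries of lower score, where Smo and Hhip were at r = 0.122, Ptch1 and Hhip at -0.07 and Smo and Ptch1 at -0.02.

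**Figure D5:**
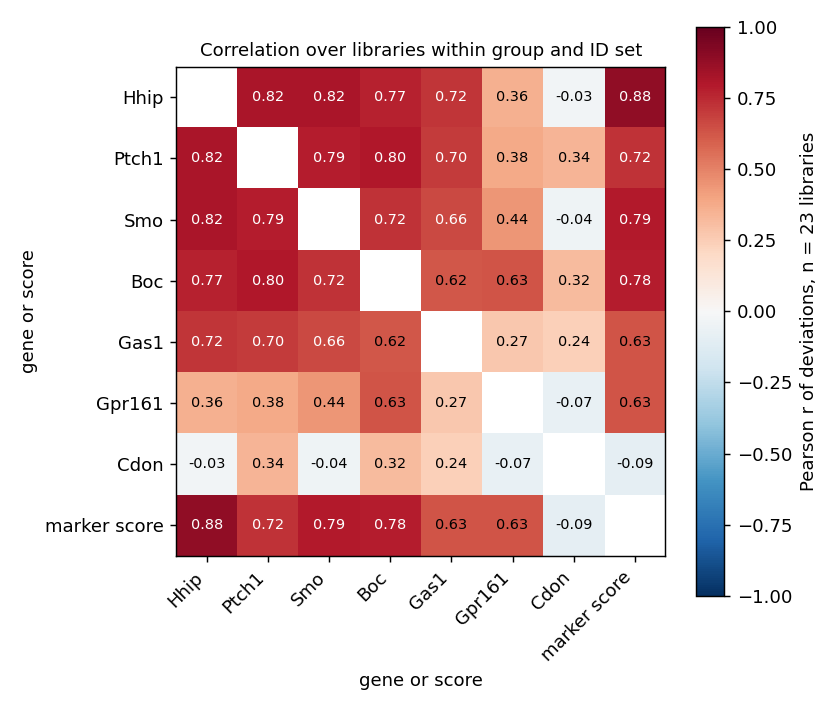
Pearson correlation of log2 CPM between the genes, and of each gene with the marker score, over deviations of the 23 libraries from the means of their group and ID set. Colours run from -1 (blue) to 1 (red); the row of Cdon holds values between -0.09 and 0.34, and that of Hhip reaches 0.88 with the marker score.

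Over the 12086 genes whose mean log2 CPM was 1 or more, the 3 most alike in pattern over the 23 libraries were found for each member by Pearson's r of log2 CPM, taken as deviations from the mean of group and ID set, as a description. For Hhip these were Nrep (0.970), Gli1 (0.950) and Hoxb2 (0.940). For Ptch1 they were Adam12 (0.916), Prex2 (0.911) and Sema5a (0.905). Smo was closest to Col14a1 (0.900), a collagen of fibrous tissue, Col27a1 (0.894) and Arap1 (0.894). Boc was closest to Prrx1 (0.893), a mesenchymal homeobox gene, the smooth muscle myosin Myh11 (0.891) and the netrin receptor Unc5c (0.890). Gas1 was closest to Samd14 (0.874), Pcbp3 (0.855) and Col8a2 (0.845), and Gpr161 to Pnmal2 (0.900), Ubtf (0.806) and Adamts4 (0.803). For Cdon they were the histone methyltransferase Setd2 (0.830), Grip1 (0.827) and the secreted IGF-binding protein Igfbp5 (0.822), and none of the named genes was shared between members. These libraries differ in depth and marker score, which all genes share.

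Other genes of the pathway were taken from lists by role. Of 12 ligands and proteins that process or carry them, 10 were tested, while Shh and Ihh fell under the filter on low counts. The median level of Shh was 0.112 CPM in wild-type, 0.454 in haploinsufficient and 0.688 in triple-knockout hearts. Its highest value, 8.90 CPM, was in haploinsufficient replicate 7, which had the highest Smo and a marker score of 2.97. Shh was between 0.688 and 8.90 CPM in the libraries of high marker score and between 0 and 0.882 CPM in the others. A relation of Shh to Smo was not tested. The Desert Hedgehog gene Dhh stood at 4.74 ± 1.47 CPM (SD, n = 8) in wild-type, 4.62 ± 2.11 (n = 8) in haploinsufficient and 3.90 ± 1.44 (n = 7) in triple-knockout hearts. Gpc4, a cell-surface glypican, fell in haploinsufficient hearts, from 33.05 ± 9.17 (n = 8) to 19.04 ± 5.33 CPM (n = 8), by 0.81 ± 0.20 on the log2 scale (edgeR adjusted p = 0.0266), and no other gene of this list passed in any comparison. Gpc4 was at -0.74 without the libraries of high score (edgeR adjusted p = 0.104), and 6 of 23 omissions of a single library ended its call (highest edgeR adjusted p = 0.0663). Of 20 genes between SMO and the nucleus 19 were tested and none passed in any comparison, with list medians of 0.122 for the triple knockout and 0.009 for haploinsufficient hearts against wild type and 0.055 between the GRK groups. At an unadjusted edgeR p under 0.05 it was 1 of 19 in each comparison. The fitted fold change of Gli1 was 4.65 and 5.62 in the triple knockout and in haploinsufficient hearts against wild type (edgeR adjusted p = 0.301 and 0.147). Gli1 was between 12.3 and 40.3 CPM in the 7 libraries of high marker score and between 0 and 7.44 CPM in the others. Without those 7 libraries its log2 fold change was 0.49 and -0.11 (edgeR adjusted p = 0.999 and 0.963). Of 11 target genes other than these receptors 10 were tested, and Foxf1, a transcription factor of lung and foregut mesenchyme, rose in haploinsufficient hearts (17.3-fold, 95% interval 3.91 to 76.98, edgeR adjusted p = 0.0340). Its level was between 7.95 and 67.0 CPM in the libraries of high score and between 0 and 7.59 CPM in the others, and with the score as a term its log2 fold change was 0.18 (edgeR adjusted p = 0.931). Without those libraries Foxf1 fell under the filter on low counts, and 10 of 23 omissions of a single library ended its call (highest edgeR adjusted p = 0.0963).

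Of the 14 tested lung, foregut, liver and thymus markers, Cldn6 rose in haploinsufficient hearts (18.7-fold, edgeR adjusted p = 0.0424), and none passed in the other comparisons. With the score, of which it is part, as a term Cldn6 was at 0.66 on the log2 scale (edgeR adjusted p = 0.648), and 12 of 23 omissions of a library ended its call (highest edgeR adjusted p = 0.106). It fell under the filter on low counts without the libraries of high score. The list's median log2 fold change was 1.33 in the triple knockout and 1.51 in haploinsufficient hearts against wild type, beside Hhip at 2.97 and 3.06 and Ptch1 at 0.55 and 0.59. None of 8 cardiomyocyte or 7 epicardial markers passed in any comparison. In the triple knockout against wild type Npr3 fell among 8 endothelial, Col2a1 among 7 tested cushion and Tagln among 6 smooth muscle markers, and Gap43 rose among 5 tested neural crest markers. Foxf1, on the list of second heart field markers too, was the only one of 7 tested there that passed, in haploinsufficient hearts. The part of these cells in the levels of the receptors was not tested.

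A test of whether the group differences themselves differed between the library ID sets passed for none of the 7 genes in edgeR with adjusted p-values. Of all genes 0.172% passed it for the triple knockout and 0.0% for haploinsufficient hearts against wild type, and 0.0861% between the GRK groups (24, 0 and 12 of 13941). At an unadjusted edgeR p under 0.05 these numbers were 1072, 1023 and 1517. The smallest p-values belonged to Boc between the GRK groups, where the log2 difference in IDs 19 to 30 minus that in IDs 1 to 12 was -1.4998 (edgeR adjusted p = 0.213), and to Hhip in haploinsufficient hearts against wild type (6.197, edgeR adjusted p = 0.645).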

How the data were processed

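The authors deposited a table of raw read counts per gene and a table of FPKM values. The submitters' processing notes name the mm10 build, the aligners TopHat2 (version 2.0.10) and Bowtie2, the counting tool HTSeq and Cufflinks (version 2.1), which computes FPKM, without stating how each was run. Per the labels, ribosomal RNA was depleted and strand was not kept, so a gene and an antisense partner cannot be told apart. Groups were taken from the genotype labels. Single-exon features of the targeted genes were summed per gene, and the targeted genes and Cre were left out of counts of called genes.

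Counts were tested here with edgeR (version 4.0.16, R 4.3.3), by quasi-likelihood over all 23 libraries with TMM scaling, a term for the library ID set (1 to 12 or 19 to 30), and the expression filter (minimum count 10, minimum total 15), which kept 13941 genes. Two-sided p-values were adjusted by Benjamini-Hochberg over all genes, with a threshold of 0.05. "Rose" and "fell" are used of genes past it. The common biological coefficient of variation was 0.208. Log2 CPM used a prior count of 1. The marker score limit was 1.5. Exon lengths came from the deposited annotation. Ratios were tested by exact permutation, and correlations by 100000 permutations within group and ID set.

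Alternatives were DESeq2 (version 1.42.0), RLE scaling, no filter, no ID term, the replicate number as a block, only the groups compared, each ID set, the marker score as a term, leaving out libraries of high score, limma (version 3.58.1) on log2 FPKM with pseudocounts of 1 and 0.1, and each library left out. The ratios without libraries of high score, and these alternatives for Gli1, Foxf1, Cldn6 and Gpc4, were added after seeing the data. The members, gene lists, tests and score limit were chosen with earlier results of these data known. All 7 members are named, with up to 4 genes of smallest p and the defining genes of other lists, and the 3 genes most alike per member.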

Additional observations from a re-analysis of the deposited data

Results flagged for a closer look

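Hhip in wild-type replicate 4 stood at 6.16 CPM, apart from the other 7 wild-type libraries, the nearest of which was at 1.89 CPM. The gap was 0.694 of the group's whole range, above the critical value of 0.526 for 8 libraries. It was the only one of 21 groups of libraries tested (7 genes in 3 genotypes) that stood out in this way, and chance flags about 1 in 20. The same library had the highest marker score of its group, at 1.75.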

How the results depend on the processing

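The fall of Cdon in haploinsufficient hearts and its rise in the triple knockout over them kept their direction under all 12 alternatives (log2 -0.44 to -0.32 and 0.34 to 0.61) and all 23 omissions of a library. The number of the 7 genes called against wild type in haploinsufficient hearts went from 1 to 0 with the replicate block (Cdon -0.39, edgeR adjusted p = 0.0507), in either ID set alone, with the marker score as a term and without the libraries of high score, and ran from 0 to 1 over the omissions. The same fits called 222, 20 (IDs 1 to 12), 179 (IDs 19 to 30), 162 and 118 genes in all. That between the GRK groups went from 1 to 0 with only the groups compared, in either ID set, without the libraries of high score and by limma on log2(FPKM + 1), fits that called 1, 176 (IDs 1 to 12), 1 (IDs 19 to 30), 0 and 0 genes in all. The count against wild type in the triple knockout was 0 throughout. Fewer libraries enter several of these fits, and otherwise the cause was not tested. Over all genes, calls for the triple knockout and haploinsufficient hearts against wild type and between the GRK groups numbered 166, 312 and 55. They were 292, 561 and 269 by DESeq2, 71, 118 and 0 without the libraries of high score, and 147, 222 and 16 with the replicate block. Same-numbered libraries did not deviate together: 5 of 22 pairs had a correlation over 0.1 (range -0.20 to 0.467), and 2 of 23 libraries correlated best with their own number. The replicate block also turned Ptch1 (0.042) and Hhip (0.38) between the GRK groups.

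Changes of sign, in log2 units, were found for genes whose change had not passed the test. For the triple knockout against wild type, IDs 1 to 12 gave Smo 0.052. IDs 19 to 30 gave Gpr161 0.13. The marker score term gave Ptch1 -0.11, Boc -0.35 and Hhip -0.59. Without libraries of high score Boc was -0.17 and Gpr161 0.044. limma with pseudocounts of 1 and 0.1 gave Smo 0.0073 and 0.0069 and Gpr161 0.032 and 0.039. For haploinsufficient hearts against wild type, IDs 1 to 12 gave Smo -0.070 and Boc -0.31. IDs 19 to 30 gave Gas1 0.050 and Gpr161 0.035. The score term gave Smo -0.21, Ptch1 -0.10, Boc -0.34 and Hhip -1.38. Without libraries of high score Smo was -0.16 and Ptch1 -0.0026, and limma gave Smo -0.0035 and -0.0042. Between the GRK groups, IDs 1 to 12 gave Smo 0.12, Ptch1 0.34, Gas1 0.15 and Hhip 0.82, and IDs 19 to 30 Boc -0.67. The score term gave Boc -0.018 and Hhip 0.79, the fit without the ID term Boc -0.0059, and that of only the groups compared Hhip 0.037. Without libraries of high score Ptch1 was 0.083 and Boc -0.17. limma gave Smo 0.011 and 0.011, Ptch1 0.045 and 0.046 and Hhip 0.044 and 0.21. Over omissions of a library, signs turned for Boc (-0.18 to 0.16), Ptch1 (-0.31 to 0.16), Hhip (-1.89 to 0.40) and Smo (-0.14 to 0.028) between the GRK groups. Against wild type they turned for Gas1 (-0.12 to 0.018) and Smo (-0.043 to 0.092) in haploinsufficient hearts and for Gpr161 (-0.13 to 0.088) and Smo (-0.081 to 0.027) in the triple knockout. Hhip did not pass the filter in IDs 19 to 30, without libraries of high score or, against wild type, with only the groups compared, so it has no value there. Gli1 turned with the score term (-0.63 in the triple knockout and -1.03 in haploinsufficient hearts against wild type) and, in the latter, without libraries of high score (-0.11).

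The ratio of Gas1 to Cdon was -0.29 and -0.41 against wild type and -0.48 and -0.88 against haploinsufficient hearts within the ID sets, where 3 or 4 libraries a group say nothing about stability. Without libraries of high score, an alternative chosen after seeing the data, it missed the threshold against haploinsufficient hearts (-0.61). Over omissions it ran from -0.44 to -0.30 and from -0.80 to -0.62, and from 0.25 to 0.43 in haploinsufficient hearts against wild type, where leaving out haploinsufficient replicate 3 brought it past the threshold. Leaving out triple-knockout replicate 4 did so for Ptch1 to Smo against wild type (0.29 to 0.57). Signs turned for Gas1 to Boc in haploinsufficient hearts against wild type (0.11, IDs 1 to 12), and between the GRK groups for Boc to Cdon (0.20, IDs 1 to 12), Gas1 to Boc (0.27, IDs 19 to 30) and Ptch1 to Smo (-0.17, IDs 19 to 30, and -0.10 to 0.18 over omissions). Boc to Cdon in the triple knockout against wild type turned in IDs 19 to 30 (-0.13), without libraries of high score (-0.18) and over omissions (-0.069 to 0.15). The 11 correlated pairs became 0 in IDs 1 to 12, in IDs 19 to 30 and without libraries of high score, and the 6 genes correlated with the score became 1, 2 and 0. In IDs 19 to 30 Cdon turned to r = 0.094 with the score. Without libraries of high score Ptch1 turned to r = -0.46 with the score, -0.073 with Hhip and -0.015 with Smo. The order of levels in wild-type hearts was the same in FPKM. Hhip was the gene closest to the detection limit, with no count in 6 libraries. Those libraries held between 4434317 and 14050559 counts, while the shallowest library, haploinsufficient replicate 2 (1757257 counts), had a Hhip count of 1.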
